A study of Mus musculus with 8 samples.

Results

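Dot1l and 9 other genes for histone H3 lysine methyltransferases were examined in mouse hippocampus after repeated ketamine anesthesia, to ask whether the higher level of Dot1l after anesthesia was shared by the enzymes of its class. These are 10 of the 20802 genes in the deposited table, and all 10 were among the 18865 genes that had a mean of at least 10 normalized counts and were tested. Dot1l was selected on its measured difference between these same mice, being among the genes that the study listed as changed. The other members (Kmt2a, Kmt2b, Kmt2c, Kmt2d, Setd1a, Setd1b, Setd2, Ehmt1 and Nsd1) were chosen from its enzyme class, with earlier results of these data known. The values of the 10 members in this contrast are therefore a description and are given with no test.

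The mice were male C57BL/6, divided into an Anesthesia group and a Control group of 4 mice each, and every mouse was sequenced as a separate sample. Starting on PND16, the Anesthesia group had ketamine intraperitoneally at 35 mg per kg on 5 consecutive days, and the Control group had saline in the same way, although the sample titles call the Control mice untreated. Hippocampal RNA was taken 1 week after the final injection, at an age that the labels give as PND28. Values are counts that the authors normalized between libraries, here called normalized counts, and their total was between 18702634 and 19231119 per mouse.

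Enzymes of this class add methyl groups to lysines in the tail or the core of histone H3, and the lysine that is methylated differs between them. Methylation of H3K4 marks promoters and enhancers, methylation of H3K36 and H3K79 accompanies transcribed gene bodies, and dimethylation of H3K9 accompanies silenced chromatin. Several of these genes, among them Kmt2d, Setd1a, Ehmt1 and Nsd1, are known from inherited disorders of brain development or from psychiatric genetics.

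DOT1L is the methyltransferase for H3K79 and has no SET domain. Dot1l (ENSMUSG00000061589, chromosome 10, 80755206 to 80795461 on GRCm38) had 434, 430.3, 467 and 386 normalized counts in Anesthesia mice 1 to 4 and 305, 275, 324 and 259.6 in Control mice 1 to 4. The lowest Anesthesia value, in mouse 4, was above the highest Control value, in mouse 3. The means were 429 ± 33.3 and 291 ± 29.0 (SD, n = 4 each), and the log2 fold change was 0.56 (standard error 0.10, limma). In bulk tissue, more cells that express a gene and more RNA of it per cell cannot be told apart. A log2 fold change of at least this size, up or down, was fitted for 911 of the 18865 genes.

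Of the 10 members, 1 had groups that did not overlap, with the Anesthesia group above, and that was Dot1l. Over all genes tested the same was true of 2.81%, and the opposite separation, which no member had, of 2.23%. Since Dot1l was chosen on this contrast, nothing is read from that count. Of the 9 other members, 8 had a higher mean log2 level in the Anesthesia group, against 49.2% of all genes tested, and their median log2 fold change was 0.06, against -0.0036 over all genes. In limma voom 7 of the 9 were higher. This direction was not kept after a loess correction of the libraries for the GC content and length of transcripts. For the 9 genes the median was then -0.04, against -0.01 for all genes. Of the 9, 3 (Kmt2b, Setd2 and Ehmt1) were higher, against 8730 of the 18865 genes tested. Dot1l then had a log2 fold change of 0.42. When the genes tested were divided into 4 classes of equal size by transcript length, all 10 members were in the longest class, whose median log2 fold change was 0.03. In 4 such classes by GC content, 5 members (Dot1l, Kmt2b, Kmt2d, Setd1a and Setd1b) were in the highest class, whose median was 0.04.

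**Figure D1:**
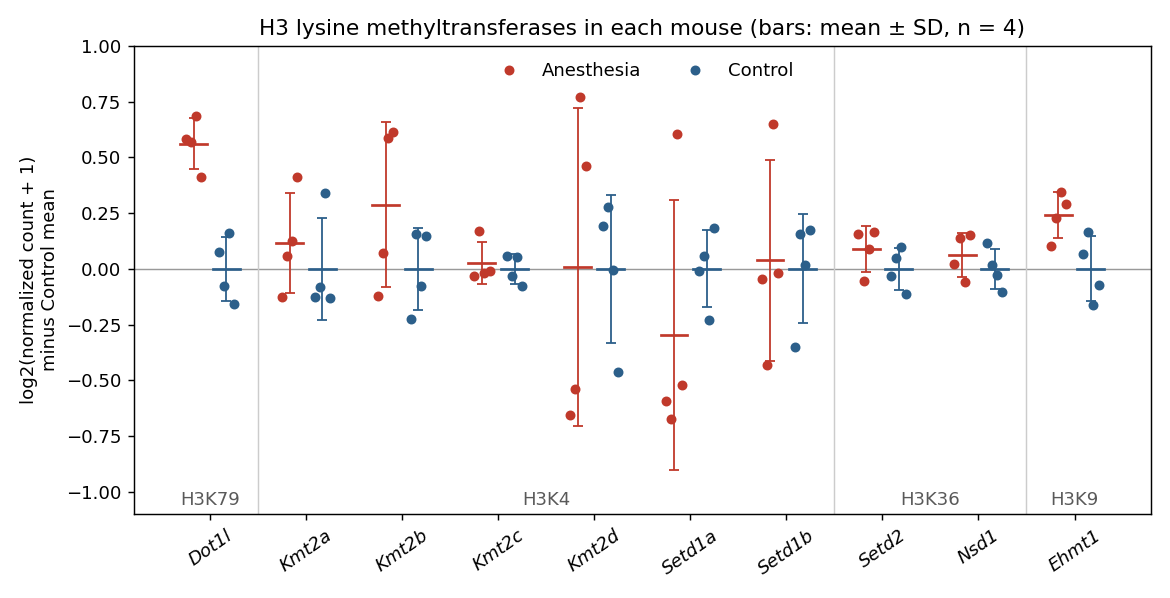
Level of each H3 lysine methyltransferase gene in each mouse, as log2(normalized count + 1) minus the mean of the 4 Control mice, with Anesthesia mice in red and Control mice in blue. Horizontal bars are group means and error bars are SD (n = 4). The points of the 2 groups are apart for Dot1l, from 0.41 to 0.69 against -0.16 to 0.16, and overlap for the other members.

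KMT2A and KMT2B, both related to fly Trithorax, methylate H3K4 mainly at promoters. Kmt2b (chromosome 7, 30568858 to 30588726) had 339.5, 388, 556 and 566 normalized counts in Anesthesia mice 1 to 4 and 316, 413, 350.1 and 409 in Control mice 1 to 4. Anesthesia mice 3 and 4 lay above all Control mice, and Anesthesia mice 1 and 2 lay within the Control range. Its log2 fold change was 0.29 (standard error 0.17), and it was 0.19 without Anesthesia mouse 3, 0.18 without Anesthesia mouse 4 and 0.10 after the correction for GC content and length. Kmt2a (chromosome 9, 44803355 to 44881296) ranged from 2311 to 3359 normalized counts in the Anesthesia group and from 2306 to 3198 in the Control group, and its log2 fold change of 0.12 (standard error 0.13) was -0.04 after the correction. Control mouse 3 lay apart from the other Control mice for this gene, and the log2 fold change was 0.23 without it, 0.20 without Anesthesia mouse 1, 0.07 without Control mouse 1 or 4, and 0.02 without Anesthesia mouse 4.

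KMT2C and KMT2D methylate H3K4 mainly at enhancers. Kmt2c (chromosome 5, 25271798 to 25498783) varied little, from 4923 to 5659 normalized counts in the Anesthesia group and from 4768 to 5242 in the Control group, and its log2 fold change was 0.03 (standard error 0.06). Kmt2d (chromosome 15, 98831669 to 98871204) had 931, 1009, 2503 and 2019 normalized counts in Anesthesia mice 1 to 4 and 1675, 1777, 1462 and 1063 in Control mice 1 to 4. The lowest and the highest value of Kmt2d were both in the Anesthesia group, so that its log2 fold change of 0.01 (standard error 0.30) lies between mice that differ widely. Its spread within groups was larger than that of 91.2% of the genes tested, whereas 10.9% of genes had a spread no larger than that of Kmt2c. The signs of both differences depend on single mice. The log2 fold change of Kmt2d was -0.24 without Anesthesia mouse 3, -0.14 without Anesthesia mouse 4 and -0.15 without Control mouse 4, and that of Kmt2c was -0.02 without Anesthesia mouse 2.

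SETD1A and SETD1B are the catalytic subunits of the COMPASS complexes, which place H3K4 trimethylation at active promoters. Setd1a (chromosome 7, 127776670 to 127800122) had 194, 183, 447 and 204 normalized counts in Anesthesia mice 1 to 4 and 291, 305, 249.7 and 333 in Control mice 1 to 4. Anesthesia mice 1, 2 and 4 lay below all Control mice, and Anesthesia mouse 3 lay above them all. Setd1a was the member with a lower mean in the Anesthesia group, and its log2 fold change of -0.30 (standard error 0.25) was -0.60 without Anesthesia mouse 3, -0.17 without Anesthesia mouse 2 and -0.20 without Anesthesia mouse 1. Setd1b (chromosome 5, 123142193 to 123168629) had 133, 101, 216 and 135 normalized counts in Anesthesia mice 1 to 4 and 107, 153, 139 and 155 in Control mice 1 to 4. Its highest value was also in Anesthesia mouse 3, and its log2 fold change of 0.04 (standard error 0.22) was -0.17 without that mouse, -0.08 without Control mouse 1 and 0.20 without Anesthesia mouse 2.

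SETD2 is the enzyme that trimethylates H3K36 during elongation, and NSD1 dimethylates H3K36. Setd2 (chromosome 9, 110532597 to 110618633) ranged from 2603 to 3033 normalized counts in the Anesthesia group and from 2497 to 2891 in the Control group, and the fitted log2 fold change was 0.09 (standard error 0.07). Nsd1 (chromosome 13, 55209782 to 55318325) ranged from 7605 to 8803 in the Anesthesia group and from 7370.4 to 8577 in the Control group, and the fitted log2 fold change was 0.06 (standard error 0.07). For both genes the difference between the group means was smaller than the range within either group. With single mice left out, Setd2 was between 0.05 (without Control mouse 4) and 0.14 (without Anesthesia mouse 2), and Nsd1 between 0.03 (without Control mouse 4) and 0.10 (without Anesthesia mouse 3). After the correction for GC content and length Setd2 was at 0.04 and Nsd1, with the sign turned, at -0.04.

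EHMT1, also called GLP, dimethylates H3K9 together with EHMT2. Ehmt1 (ENSMUSG00000036893, chromosome 2, 24789928 to 24919614) had 857, 934, 1014 and 976 normalized counts in Anesthesia mice 1 to 4 and 835, 896, 713 and 759 in Control mice 1 to 4. Anesthesia mouse 1 lay below Control mouse 2, and the other Anesthesia mice lay above all Control mice. The means were 945 ± 67.2 and 801 ± 80.9 (SD, n = 4 each), the log2 fold change was 0.24 (standard error 0.09), and it was 0.19 after the correction for GC content and length. Without Anesthesia mouse 1, or without Control mouse 2, the groups of Ehmt1 did not overlap. Groups of 3 and 4 mice are apart more often: over all genes tested, the Anesthesia group was above in 5.84% without Anesthesia mouse 1 and in 4.46% without Control mouse 2.

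For each of the 9 members other than Dot1l the highest value of the 8 mice was in the Anesthesia group, as it was for 54.6% of all genes tested, and also for Dot1l. Dot1l was chosen on this contrast, and nothing is read from the count. The highest value was in Anesthesia mouse 3 for 5 of the 10 (Dot1l, Kmt2d, Setd1a, Setd1b and Ehmt1), in Anesthesia mouse 4 for 4 (Kmt2a, Kmt2b, Setd2 and Nsd1) and in Anesthesia mouse 2 for Kmt2c. The median of the 9 other members, as the log2 difference from the Control mean, was -0.05, 0.06, 0.35 and 0.17 in Anesthesia mice 1 to 4, against 0.58, 0.57, 0.69 and 0.41 for Dot1l. In Anesthesia mice 1 and 2 that median was thus within 0.06 of the Control mean. The lowest value of a member was in Control mouse 4 for 5 of the 10, Dot1l among them, and in an Anesthesia mouse for Kmt2d, Setd1a and Setd1b.

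The members differ more in level than any of them differed between the groups. Divided by the total length of its exons, Nsd1 was the most abundant, at 464 ± 30.5 normalized counts per kb (SD over 8 mice), and Setd1b the least, at 11.8 ± 2.93. From the highest to the lowest mean over the 8 mice, the order was Nsd1, Setd2, Kmt2c, Kmt2a, Ehmt1, Kmt2d, Kmt2b, Dot1l, Setd1a and Setd1b. The order of Kmt2b, Dot1l and Setd1a differed between the groups. Dot1l was eighth in that order, at 49.3 ± 3.83 per kb after anesthesia and 33.4 ± 3.33 in Control mice (SD, n = 4 each). After anesthesia Dot1l lay above Kmt2b (48.2) and Setd1a (37.8), and in Control mice it lay below Setd1a (43.4) and Kmt2b (38.8). With this length, the ranges over 8 mice did not overlap between Nsd1 and Setd2, between Kmt2c and Kmt2a, between Kmt2a and Ehmt1, or between Setd1a and Setd1b, and the ranges of the other neighbours overlapped. With the longest transcript as the length, 6 of the 10 kept their place, Setd2 changed places with Kmt2c and Kmt2b with Dot1l, and the ranges of Kmt2a and Ehmt1 overlapped.

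**Figure D2:**
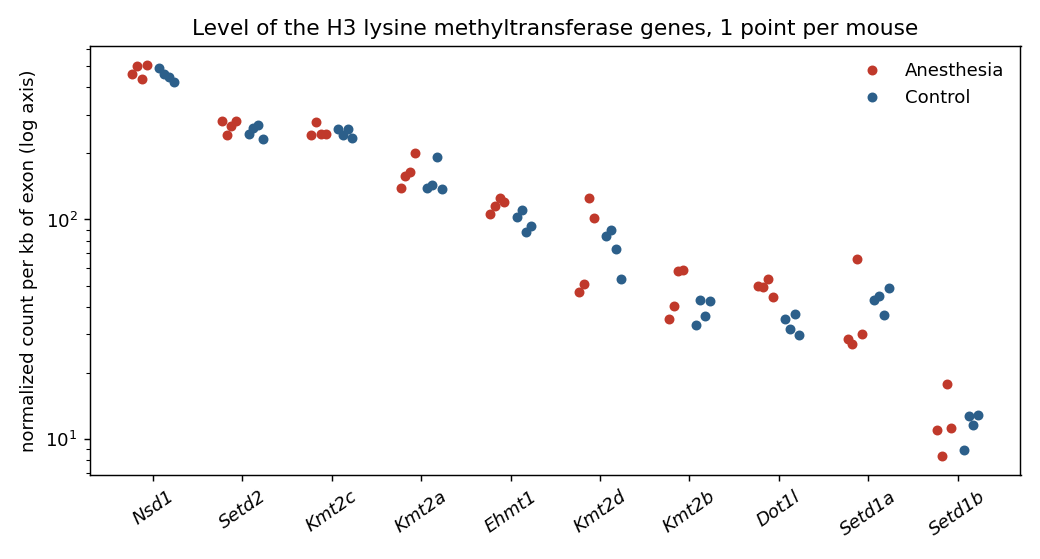
Normalized counts per kb of exon (log axis) of the 10 genes in each mouse, ordered by their mean over the 8 mice, with Anesthesia mice in red and Control mice in blue. Nsd1 (mean of 464 per kb) is apart from the rest at the top and Setd1b (mean of 11.8 per kb) at the bottom, and Kmt2b, Dot1l and Setd1a overlap.

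The members share long transcripts and promoters rich in CpG. Their longest transcripts run from 5953 bases (Ehmt1) to 19823 bases (Kmt2d), with 17 to 59 exons, and Dot1l has 6808 bases and 28 exons. RefSeq promoters on GRCm38.p6, from 250 bases before to 50 bases after a RefSeq start, were matched for 7 of the 10 members, and not for Kmt2b, Setd1b and Nsd1. That of Setd1a, 127777139 to 127777438, lies inside the gene span given above. The matched promoters held between 27 (Kmt2d) and 56 (Kmt2c) CpG dinucleotides (CG), and Dot1l held 49. The median over 32851 promoters was 7, and 1.02% of them held at least as many as Dot1l. Within their spans, 5 of the 10 members (Kmt2a, Kmt2c, Setd1a, Setd2 and Ehmt1) overlap another listed gene, 3 of them on the same strand, and reads of such pairs can be split between them. No listed gene overlaps Dot1l.

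The 5 genes whose profile over the 8 mice was most like that of Dot1l were Gm37949, C230053D17Rik, Gm29245, Abcc3 and 2810405F17Rik, at a root mean square log2 difference between 0.07 and 0.12, each profile being centred on its own mean. Abcc3, a transporter of the ABC family, had 37.1 ± 2.74 normalized counts after anesthesia and 24.8 ± 4.89 in Control mice (SD, n = 4 each), and the other 4 are noncoding or unclassified transcripts with few counts. Gm37949, C230053D17Rik and Gm29245 lie inside Ppp1r12b, Trak1 and Sobp and are uncertain for that reason. The same limit holds for some genes named below. Smyd1 overlaps Krcc1, Mllt10 overlaps Dnajc1, Ell3 overlaps Serinc4, and P2ry12 lies inside Med12l. Of the 9 other members Ehmt1 was the nearest, at 0.23, and 739th of 18864 genes in that order, followed by Setd2 at 0.27. Setd1b, at 0.42, Kmt2d, at 0.55, and Setd1a, at 0.57, were farther from Dot1l than the median gene, which was at 0.36. The profiles were not scaled, so the spread of a gene enters this distance. A gene that varies little can be nearer to Dot1l than one that varies widely, whatever the shape of its profile.

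No gene of any kind passed the test between the groups: the adjusted p was under 0.05 for 0 of 18865 genes in limma and for 0 in limma voom. Without Control mouse 1 the count was 2. Before adjustment, p was under 0.05 for 897 genes (4.75%) with a higher and 616 (3.27%) with a lower level after anesthesia. In 9 lists of other histone-modifying enzymes and their partners, 104 of 105 genes were tested, and 0 passed. Before adjustment, p was under 0.05 for 10 of the 104 (9.62%) in the higher and for 5 (4.81%) in the lower direction. After the correction for GC content and length these were 2 (1.92%) and 5 (4.81%), against 3.25% and 3.2% of all genes. Their median log2 fold change was 0.02, with 58 higher and 46 lower.

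DOT1L works with the proteins of Mllt1, Mllt3, Mllt6 and Mllt10, some of which are also part of the super elongation complex. The list examined held these partners together with genes of the super elongation complex. In it 9 of 14 tested genes were higher, with a median log2 fold change of 0.03. After the correction for GC content and length 5 of 14 were, against 8730 of all 18865 genes, and the median was -0.0067. With single mice left out the median was between -0.0082 and 0.04. Before adjustment, p was under 0.05 in the higher direction for 3 of the 14 (Mllt1, Mllt6 and Mllt10), against 4.75% of all genes. Mllt3 was not among them and was at 0.02 (standard error 0.08, adjusted p = 0.947 in limma). Mllt6 had 1536, 1852, 2039 and 1719 normalized counts in Anesthesia mice 1 to 4 and 1435, 1573, 1460.2 and 1457 in Control mice 1 to 4. Its groups overlapped, since Anesthesia mouse 1 lay below Control mouse 2. The log2 fold change was 0.26 for Mllt6 (standard error 0.08, adjusted p = 0.620 in limma), 0.31 for Mllt1 (standard error 0.12, adjusted p = 0.620) and 0.30 for Mllt10 (standard error 0.12, adjusted p = 0.622). After the correction it was 0.11, 0.21 and 0.30, and the unadjusted p stayed under 0.05 for Mllt10 only. Without the correction, Mllt10 was at 0.19 when Control mouse 4 was left out. The lowest of the list was Ell3, an elongation factor with few counts (14.5 ± 5.25 after anesthesia, 19.3 ± 5.59 in Control mice, SD, n = 4 each), at -0.42, and between -0.60 and -0.18 with single mice left out.

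The subunits of the KMT2 and SETD1 complexes were not higher as a list. Of 16 genes, 6 were higher and 10 lower, and the median log2 fold change was -0.03 (-0.06 to -0.02 with single mice left out). Wdr5, a core subunit that these complexes share, had 411, 416, 437 and 457 normalized counts in Anesthesia mice 1 to 4 and 499.6, 501, 509 and 468 in Control mice 1 to 4. All Anesthesia mice lay below all Control mice, and the log2 difference in means was -0.20 (standard error 0.07, adjusted p = 0.620 in limma). Pagr1a was at a log2 fold change of 2.13 with a standard error of 1.85 (1.18 to 3.74 with single mice left out). With the level of choroid plexus markers as a covariate it was at 0.62. Pagr1a had 15.1, 0, 160 and 191 normalized counts in Anesthesia mice 1 to 4 and 171, 1.53, 2.11 and 0 in Control mice 1 to 4. Its value is uncertain for that spread. Pagr1a also overlaps Gm42742 on the same strand, and the part of this overlap was not tested.

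Other writers of H3 marks showed no common direction. Of the 6 other H3K4 methyltransferases 5 were higher (median 0.08, and between 0.05 and 0.12 with single mice left out), from Smyd1 at -0.87 (-1.14 to -0.51 with single mice left out) to Prdm9 at 0.77, both low in this tissue at a mean of at most 34.0 normalized counts in either group. Of the 8 other H3K9 methyltransferases 4 were higher (median -0.05, and between -0.09 and 0.03 with single mice left out). Ehmt2, the partner of Ehmt1, was at 2473 ± 157 normalized counts after anesthesia and 2243 ± 93.0 in Control mice (SD, n = 4 each), with a log2 fold change of 0.14 (adjusted p = 0.622 in limma), which was 0.02 after the correction for GC content and length. Prdm16, of the PRDM family, was at -0.69 (standard error 0.23, adjusted p = 0.620 in limma), and between -0.86 and -0.46 with single mice left out. In the list of H3K27 methyltransferases and their PRC2 partners 6 of 12 were higher (median -0.0033, and between -0.05 and 0.02 with single mice left out), from Phf19 at -0.91, with at most 29.7 normalized counts in any mouse, to Epop at 0.43, which was between 0.10 and 0.70 with single mice left out. Jarid2, which helps to recruit PRC2, was at 0.22 (standard error 0.08, adjusted p = 0.620 in limma) and at 0.14 after the correction. Of the 6 other H3K36 methyltransferases and related SET genes 3 were higher (median 0.01), from Nsd2 at -0.14 to Nsd3 at 0.10. After the correction 2 were higher (median -0.02), with Nsd2 at -0.16, Nsd3 at 0.0080 and Setd5 at 0.02. With single mice left out the median was between -0.0026 and 0.04. Nsd2, a close relative of Nsd1, had between 4055 and 4419 normalized counts in the Anesthesia group and between 4422 and 4843 in the Control group, so that its groups were narrowly apart (adjusted p = 0.620 in limma). Setd5 was apart in the other direction, at 0.07 before the correction. Over the 9 lists, 4 of 104 genes (Setd5, Kmt5c, Crebbp and Kat2a) had all Anesthesia mice above all Control mice and 2 (Wdr5 and Nsd2) had them below, against 2.81% and 2.23% of all genes.

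Among the erasers of H3 methylation 14 of 19 demethylases were higher, with a median of 0.05, and 0 had an unadjusted p under 0.05. The median was between 0.0062 and 0.08 with single mice left out, and after the correction for GC content and length it was 0.03, with 12 higher. The genes ran from Kdm4c at -0.14 (-0.20 to -0.07 with single mice left out) to Kdm6b at 0.30, which was 0.14 after the correction. The 12 methyltransferases of H4 lysines and of arginine had a median of -0.04 (-0.06 to -0.0019 with single mice left out), with 5 higher, from Kmt5b at -0.15 (adjusted p = 0.622 in limma) to Kmt5c at 0.17, which was 0.10 after the correction. Histone acetyltransferases had the highest median of the 9 lists, 0.11, with 7 of 12 higher. An unadjusted p under 0.05 was found for 4 of the 12 in the higher direction, against 4.75% of all genes, and for 0 of them after the correction, against 3.25%. Crebbp, the gene of the coactivator CBP, had 2332, 2572, 2692 and 2588 normalized counts in Anesthesia mice 1 to 4 and 2150.1, 2314, 2059 and 2133 in Control mice 1 to 4. Its groups did not overlap, and the log2 difference in means was 0.23 (standard error 0.06, adjusted p = 0.568 in limma). Its paralog Ep300 was at 0.22 (adjusted p = 0.619 in limma), and both were at 0.10 after the correction for GC content and length. Kat6a was at 0.38 (0.29 after the correction), Ncoa1 at 0.15 (0.09), Kat2a at 0.13 (0.08) and Hat1, the lowest, at -0.21 (-0.20). With single mice left out Ncoa1 was between 0.10 and 0.18, and Hat1 between -0.27 and -0.13.

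**Figure D3:**
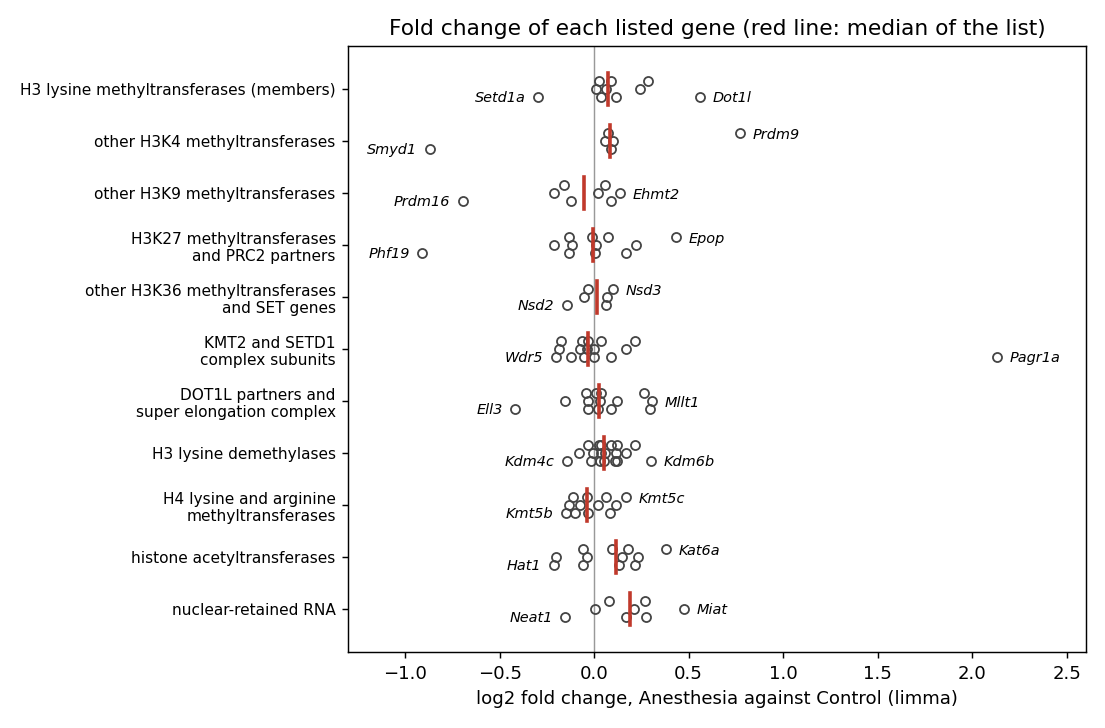
Log2 fold change (Anesthesia against Control, limma) of every tested gene in the list of members, the 9 lists of histone enzymes and partners, and the list of nuclear-retained RNA, with 1 open circle per gene. The highest and the lowest gene of each list are named, and red lines are list medians, from -0.05 for the other H3K9 methyltransferases to 0.19 for nuclear-retained RNA.

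Nuclear-retained RNA was measured as a sign of RNA composition, and 0 of its 8 genes had an adjusted p under 0.05. The labels and the methods name different library kits, and which of them was used affects the values of nuclear RNA. The 8 listed transcripts summed to 365510, 415807, 382167 and 405413 normalized counts in Anesthesia mice 1 to 4 and 339644, 339800, 363145 and 346018 in Control mice 1 to 4, and the sums did not overlap between the groups. Most of each sum is Malat1, whose own groups overlapped, from 282861 to 340237 after anesthesia and from 261879 to 289300 in Control mice. Of the 8, 7 were higher (median 0.19), among them Malat1 at 0.17, Meg3 at 0.27, Miat at 0.47 and Rian at 0.0045, whose sign differed between alternatives, and Neat1 was lower, at -0.15. After the correction for GC content and length 5 of 8 were higher (median 0.15), with Malat1 at 0.16, Meg3 at 0.14, Miat at 0.32 and Neat1 at -0.28. Neat1 was between -0.21 and -0.09 with single mice left out. As the log2 difference from the Control mean, the median of the list was 0.10, -0.01, 0.29 and 0.24 in Anesthesia mice 1 to 4. Miat had all Anesthesia mice above all Control mice (adjusted p = 0.565 in limma), as 2.81% of all genes did. The part of nuclear RNA content in the difference of Dot1l was not tested.

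Choroid plexus markers differed widely among mice of both groups. They summed to 87325, 4982, 4607 and 10009 normalized counts in Anesthesia mice 1 to 4 and 4390.5, 46115, 104282 and 101873 in Control mice 1 to 4, with 0 of 12 higher in the Anesthesia group and Ttr as the most abundant. With the choroid plexus level as a covariate, the log2 fold change of Dot1l was 0.54, that of Ehmt1 0.17, that of Setd1a -0.45, that of Nsd1 0.03 and that of Kmt2d -0.27, and 6 of the 9 other members were higher. The covariate itself differs between the groups, so its part and that of the group cannot be fully told apart.

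Prox1 and Neurod6, markers of hippocampal granule and pyramidal neurons, were present in every mouse, at no less than 957 and 1319 normalized counts. Of the excitatory and pan-neuronal markers 6 of 8 were higher (median 0.03), 5 of 8 after the correction for GC content and length, and their sum was between 61130 and 69734 normalized counts in the Anesthesia group and between 57305 and 62288 in the Control group, with Syt1 the most abundant. Rbfox3 (0.30, adjusted p = 0.568 in limma) and Slc17a7 (0.17, adjusted p = 0.620) had all Anesthesia mice above all Control mice, as 2.81% of all genes did. Astrocyte markers were higher in 2 of 7 (median -0.10), and their sum, most of it Slc1a2 with a log2 fold change of 0.17 (0.08 after the correction), was between 98104 and 110223 in the Anesthesia group and between 95030 and 100877 in the Control group. Slc1a3 (-0.10, adjusted p = 0.622 in limma) and Gja1 (-0.11, adjusted p = 0.627) had all Anesthesia mice below all Control mice, as 2.23% of all genes did. GABAergic interneuron markers were higher in 2 of 7 (median -0.04, most abundant Gad1), oligodendrocyte markers in 0 of 7 (-0.07, Mbp), microglia markers in 5 of 7 (0.07, Csf1r), endothelium markers in 4 of 6 (0.02, Slco1a4) and thalamus markers in 3 of 7 (-0.10, most abundant Rora). The sum of the oligodendrocyte markers varied widely within both groups, from 103106 to 174896 in the Anesthesia group and from 91360 to 166168 in the Control group. Among the microglia markers P2ry12 (0.16, adjusted p = 0.639 in limma, 0.10 to 0.20 with single mice left out) had all Anesthesia mice above all Control mice, against the same 2.81%. Among the thalamus markers Rora was at 0.22 (0.04 to 0.30 with single mice left out), and Tcf7l2, at -0.57 (adjusted p = 0.620 in limma), and Calb2, at -0.50 (adjusted p = 0.622, -0.67 to -0.29 with single mice left out), were the lowest. Rbfox3, Slc17a7, Slc1a3, Gja1, P2ry12, Tcf7l2 and Calb2 were picked after their values were seen. The part of these cell types in the levels of the 10 members was not tested.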

How the data were processed

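The authors quantified transcripts with Salmon (version 1.1.0) on GRCm38 and normalized gene-level counts with DESeq2 (version 1.30.1), and the deposited values are this normalized signal. The annotation release was not given in the sources used here. The labels name a TruSeq RNA v2 kit and the methods a stranded total RNA kit. The spacing of low values places the depth at approximately 15400000 to 22200000 reads per mouse. Only 38.4% to 58.9% of them lay within 0.1 of a whole read, so no count model was used.

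Log2(value + 1) was compared with limma (version 3.58.1, R version 4.3.3) with a mean-variance trend, two-sided, with Benjamini-Hochberg adjustment over 18865 genes with a mean of at least 10. Fold changes on this scale understate those of low genes. Symbols, coordinates and exon lengths came from GENCODE M21 (GRCm38). The members and lists were chosen with earlier results of these data known. Genes named are the members, the highest, the lowest and up to 4 genes with an unadjusted p under 0.05 of each list of histone enzymes and of nuclear RNA, the 5 most like Dot1l, and of each marker list only the most abundant. Prox1, Neurod6, Mllt3, Setd5, Kat2a, Rian, Rbfox3, Slc17a7, Slc1a3, Gja1, P2ry12, Tcf7l2 and Calb2 were added after their values were seen. Alternatives were limma voom, other scalings, filters, pseudocount and p threshold, a replicate block, a loess correction for GC content and length, a choroid plexus covariate, the longest transcript as length, and single mice left out. For lists and for named genes other than members these were run after the data were seen. Of these steps, the limma comparison of the groups was checked on simulated data.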

Additional observations from a re-analysis of the deposited data

Results flagged for a closer look

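In 3 of the 20 groups of 4 mice formed by the 10 members, a single mouse lay far from the others: its gap to the nearest of them, divided by the range of the group, was above the 95% critical value of Dixon for 4 values. This ratio was 0.912, 0.901 and 0.923 for the mice of Kmt2a, Kmt2c and Setd1a named below, and the next highest, 0.703, was that of Setd1b in Anesthesia mouse 3. About 1 in 20 groups is expected to be so marked by chance, here about 1. Kmt2a had 3198 normalized counts in Control mouse 3, against 2306 to 2384 in the other Control mice. Kmt2c had 5659 in Anesthesia mouse 2, against 4923 to 4996 in the other Anesthesia mice. Setd1a had 447 in Anesthesia mouse 3, against 183 to 204 in the other Anesthesia mice. For Dot1l the highest ratio was 0.547, in Anesthesia mouse 4, which is below that critical value.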

How the results depend on the processing

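The log2 fold change of Dot1l was above 0 in all 18 alternatives, between 0.42 (GC content and length correction) and 0.61, and between 0.51 and 0.61 with single mice left out. The filters and the replicate block cannot move this value, which was 0.56 in each of them, and Dot1l was selected on this contrast. The count of genes with an adjusted p under 0.05 was 0 to 2 with single mice left out and 0 otherwise. The GC content and length correction, alone and with the replicate block alike, turned the median of the 9 other members to -0.038, the count of them with a higher mean to 3, Kmt2a to -0.036, Kmt2c to -0.090, Kmt2d to -0.25, Setd1b to -0.16, Nsd1 to -0.038 and Rian to -0.014. The cause was not tested. The replicate block changed no call (0 genes), and same-numbered mice, which the labels do not pair, had correlations from -0.24 to 0.02 in their deviations from the group means. With the choroid plexus covariate Kmt2c was -0.0028, Kmt2d -0.27, Syt1 -0.016, Rian -0.0039 and Mbp 0.17, with limma voom Kmt2d was -5.0e-05 and Rian -0.0036, and with library size scaling Rian was -0.0033. With single mice left out, the median of the 9 was 0.04 to 0.14, the count with a higher mean 6 to 8, the members with groups apart 1 to 2, Kmt2c -0.021 to 0.046, Kmt2d -0.24 to 0.23, Setd1b -0.17 to 0.20, Syt1 -0.043 to 0.070, Mbp -0.20 to 0.13, Mllt3 -0.012 to 0.085, Rian -0.053 to 0.056 and Csf1r -0.070 to 0.28. With the longest transcript, 6 members kept their place in the order of levels. Groups apart were not counted under the replicate block or the covariate, which give no value per mouse. Setd1b, at 101 to 216 normalized counts per mouse, has the fewest counts of the members behind its value.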
